A study of Mus musculus with 201 samples.

Results

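The genes described here are those of the proteasome and its regulators, taken as every gene symbol that begins with Psm, continues with a letter from a to g and then a number. The rule found 54 symbols, of 42790 in the table of whole cells, 42802 in the table of nuclei from a mouse placed in a new environment (NE) and 42774 in the table of home cage (HC) nuclei. Of the 54, 48 encode a proteasome subunit, activator, inhibitor or assembly chaperone. The other 6 only share the name: Psmc3ip, a meiotic recombination factor, Psme2b, a copy of Psme2, and the pseudogenes Psmb5-ps, Psmb6-ps, Psmb6-ps2 and Psmb7-ps2.

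The proteasome is the large protease that degrades proteins tagged with ubiquitin. Its barrel, the 20S core, is built of rings of alpha subunits (Psma genes) that gate the entry and rings of beta subunits (Psmb genes) that hold the active sites, and the 19S cap recognises ubiquitin chains, removes them and unfolds the substrate with a ring of ATPases (Psmc genes) held by scaffold and lid subunits (Psmd genes). In neurons the proteasome works in the nucleus, in the cell body and at synapses, and its activity is known to be needed for lasting synaptic change.

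The study sequenced RNA of single mouse dentate granule cells (DGCs), the principal neurons of the dentate gyrus, as whole cells and as nuclei. Whole cells came from Prox1-GFP mice injected with PTZ (pentylenetetrazole, a GABA(A) receptor antagonist that causes seizures) or with saline. Their hippocampi were dissociated with a protease, and cells were sorted for GFP driven by the Prox1 promoter and amplified by Smart-seq2 with 10 uM template switching oligo (TSO) and ERCC spike-ins at 1:2000. Mice were pooled within a treatment, and the sample names of the treatments end differently, so that treatment and preparation cannot be told apart. NE nuclei were isolated by Dounce homogenisation from the hippocampus of a C57BL/6 mouse after a brief visit to that environment and sorted as PROX1+FOS+ or PROX1+FOS- by antibody. FOS is the protein of an immediate early gene and marks recently active neurons. The NE nuclei were amplified by Smart-seq2 in 4 conditions that crossed TSO at 1 or 10 uM with ERCC at 1:200 or 1:2000. HC nuclei came from a C57BL/6 mouse left in its home cage, were selected as NeuN+ and PROX1+, which the labels list as a sort and the study's methods as scoring of images after capture, and were amplified on the Fluidigm C1 microfluidic instrument. The mice that gave nuclei were wild-type young adult females by the study's methods, and all whole cells carried the Prox1-GFP transgene, which the nuclei did not. All FOS+ and FOS- nuclei shared 1 mouse and 1 isolation.

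After limits on the total count and on the number of genes, 38 of 47 saline cells, 30 of 35 PTZ cells, 41 of 48 FOS- nuclei, 40 of 48 FOS+ nuclei and all 23 HC nuclei were used. Their total counts ranged from 401331 to 2696040 in saline cells, from 67212 to 5129240 in PTZ cells, from 63775 to 1060520 in FOS- nuclei, from 80096 to 1035170 in FOS+ nuclei and from 107647 to 278779 in HC nuclei. The median number of genes with TPM (transcripts per 1e+06 transcripts of the cell) above 1, the criterion for detection used throughout, was 6447, 5760, 6020, 6326 and 3213 in the same order. Prox1 was detected in 38 of 38, 30 of 30, 34 of 41, 33 of 40 and 14 of 23 of them. Of 5 microglial markers, C1qa and Ctss were at 0 in every group. With C1qb, Csf1r and Cx3cr1 they summed to above 1 TPM in 1 saline cell, 1 PTZ cell, 33 FOS- nuclei, 29 FOS+ nuclei and 10 HC nuclei. The highest such sum was 1325 TPM, in a FOS+ nucleus. At least 1 of 4 astrocyte markers (Gfap, Aqp4, Slc1a3 and Aldh1l1) brought their summed level above 1 TPM in 8 saline cells, 7 PTZ cells, 25 FOS- nuclei, 32 FOS+ nuclei and 5 HC nuclei. Because the labels name no animal within a group, each group counts as 1 sample made of many cells. Differences are therefore given with the SD over cells and without a test, and they describe these preparations rather than the conditions. A gene is counted as higher or lower when the group means of log2(TPM + 1) differed by at least 1.

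The summed level of the proteasome genes was higher in whole cells than in nuclei. In saline cells it ranged from 2825 TPM over a median of 8759 to 11859 TPM, and in PTZ cells from 2886 over 7674 to 12512 TPM. In FOS- nuclei it ranged from 1140 over 3356 to 7893 TPM, in FOS+ nuclei from 610 over 3494 to 9801 TPM, and in HC nuclei from 109 over 4398 to 8782 TPM. Whole cells thus lay above nuclei at the median, whereas the ranges of all groups overlapped. The TPM tables were made separately for whole cells, NE nuclei and HC nuclei. Mouse strain, treatment of the mice and dissociation change together with the compartment. So do the read layout for NE nuclei and the amplification instrument for HC nuclei, while HC nuclei shared the read layout of whole cells by the study's methods. The parts of these in any difference between cells and nuclei cannot be told apart. TSO and ERCC amounts differed as well for most NE nuclei. Only 11 of 41 FOS- and 11 of 40 FOS+ nuclei were amplified with the amounts used for whole cells.

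The number of proteasome genes detected in a cell separated the groups further than the sum did. It ranged from 16 over a median of 36 to 43 in saline cells, from 17 over 32 to 45 in PTZ cells, from 7 over 16 to 33 in FOS- nuclei, from 6 over 17 to 26 in FOS+ nuclei and from 5 over 7 to 15 in HC nuclei. After each cell was thinned to 50000 reads, the medians of genes with a read were 32.5, 28.5, 13, 13 and 6. A few genes carried the sum in nuclei: the 3 leading genes held 14.2% of all proteasome TPM in saline cells and 18.5% in PTZ cells, against 30.02% in FOS- nuclei, 32.2% in FOS+ nuclei and 43.5% in HC nuclei. More than 50% of the sum came from 1 gene in 16 of 23 HC nuclei, in 5 of 41 FOS- nuclei, in 2 of 40 FOS+ nuclei and in no whole cell. Across cells of a group the number of proteasome genes detected followed the number of all genes detected, with Spearman's rho of 0.68 in saline cells, 0.88 in PTZ cells, 0.80 in FOS- nuclei, 0.77 in FOS+ nuclei and 0.44 in HC nuclei. Both counts come from the same libraries and share their depth.

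**Figure D1:**
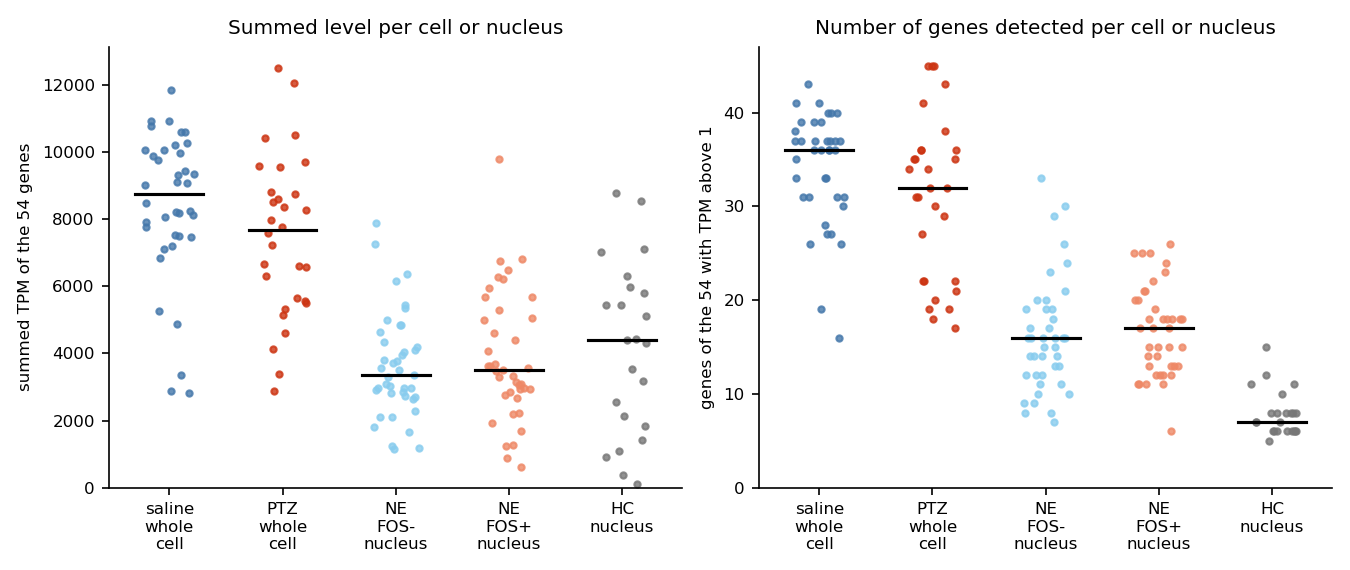
Left, the summed TPM of the 54 proteasome genes per cell or nucleus. Right, the number of these genes with TPM above 1. Each point is 1 cell or nucleus and the bar is the group median. The medians on the left lie between 3356 and 8759 TPM and on the right between 7 and 36 genes, and the HC nuclei have a high sum with few genes.

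In saline cells the subunits of the core and cap were the most abundant members. Over these 38 cells the alpha ring ran from Psma3 with a mean log2(TPM + 1) of 8.15 ± 1.35 (SD) to Psma4 with 6.26 ± 2.96. The structural beta subunits ran from Psmb2 with 7.84 ± 2.20 to Psmb1 with 7.26 ± 2.90, and the ATPases from Psmc4 with 7.30 ± 2.29 to Psmc6 with 5.60 ± 3.13. The scaffold subunits of the cap ran from Psmd2, to which ubiquitin shuttles dock, at 6.98 ± 1.98 to Psmd4, a ubiquitin receptor, at 6.17 ± 3.22. In the lid, Psmd14, the deubiquitinase that removes ubiquitin chains, had the highest level at 6.66 ± 2.52 and Psmd7, its partner, the lowest at 5.20 ± 3.25. Within each of these classes the span from highest to lowest was smaller than the larger SD over cells. TPM is expressed per transcript length, so levels of different genes can be set side by side.

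Regulators and assembly factors had lower levels than the subunits in saline cells. The activators ran from Psme1, part of the interferon-inducible cap, at 3.97 ± 3.52 to Psme3, its nuclear relative, at 1.11 ± 2.25. The chaperones of the core ran from Psmg4 at 4.08 ± 3.52 to Psmg3 at 2.53 ± 3.28, and the chaperones of the cap from Psmd5 at 3.57 ± 3.32 to Psmd9 at 1.99 ± 2.63. Psmf1, an inhibitor of the core, had a mean of 2.20 ± 3.04. Psma8, the alpha subunit of the testis, was at TPM 0 in all cells and nuclei. Its 0 of 38 saline cells leaves room for a share of up to 9.25% by the exact Clopper-Pearson 95% interval, used for all shares of cells. Such intervals cover only the sampling of cells from a preparation, and not differences between animals or preparations. The reads carry no molecular identifiers, so counts are of reads and not of molecules.

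**Figure D2:**
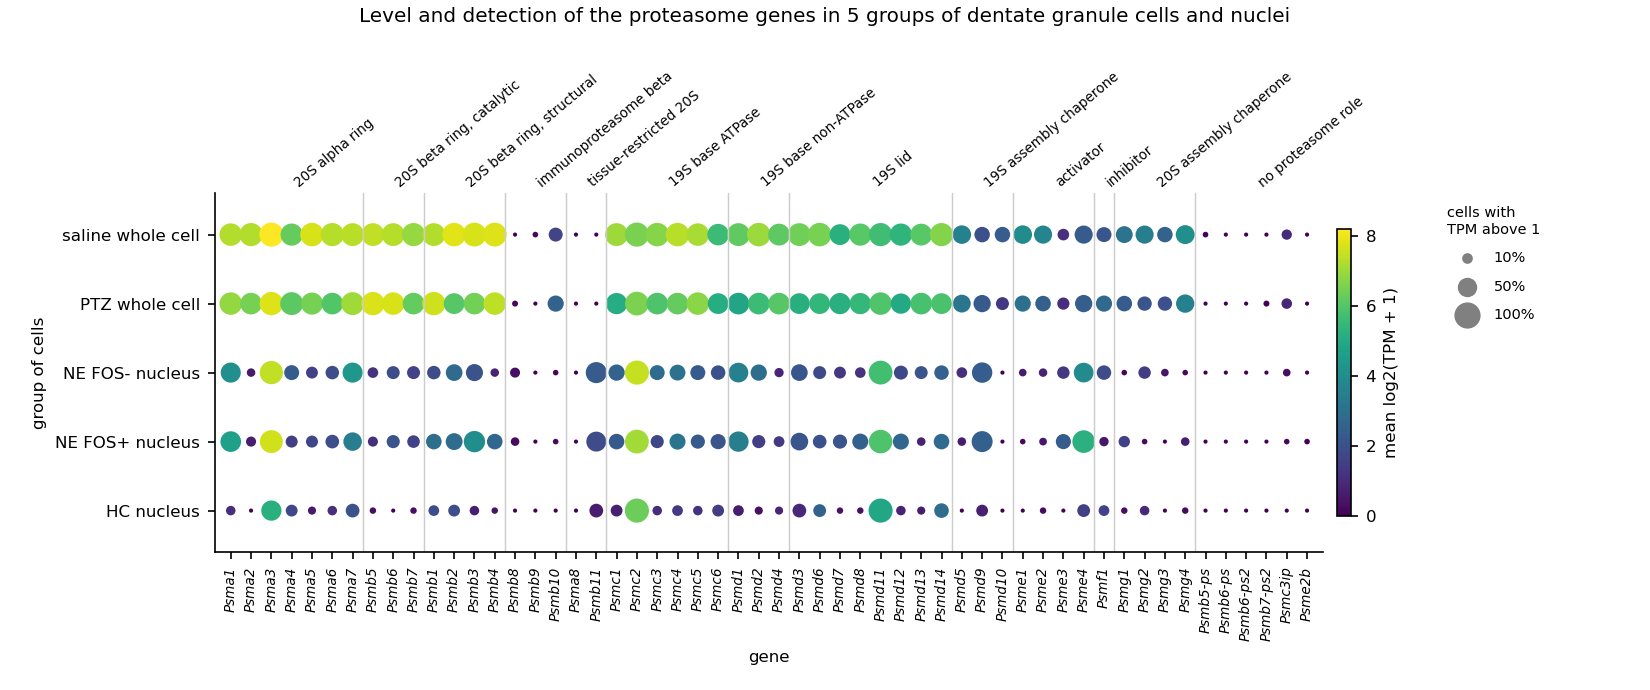
Proteasome genes (columns, grouped by role) in the 5 groups (rows). Colour gives the mean log2(TPM + 1) and dot size the percent of cells or nuclei with TPM above 1. The core and cap columns are bright in whole cells, and in nuclei Psma3, Psmc2 and Psmd11 keep large dots, detected in 38, 41 and 40 of 41 FOS- nuclei.

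The active sites of the standard core lie on Psmb5 (chymotrypsin-like), Psmb6 (caspase-like) and Psmb7 (trypsin-like), which interferon can replace with Psmb8, Psmb9 and Psmb10 to form the immunoproteasome used in antigen presentation. The summed level of the standard 3 ranged from 0 over a median of 1006 to 1604 TPM in saline cells and from 19.4 over 1127 to 3642 TPM in PTZ cells. The immunoproteasome 3 summed to a median of 0 in all 5 groups, and to at most 167 TPM in a saline cell, 323 TPM in a PTZ cell, 69.6 TPM in a FOS- nucleus and 324 TPM in a FOS+ nucleus. At least 1 standard subunit was detected in 37 of 38 saline cells, 30 of 30 PTZ cells, 19 of 41 FOS- nuclei, 22 of 40 FOS+ nuclei and 1 of 23 HC nuclei. At least 1 immunoproteasome subunit was detected in 12 of 38 saline cells (31.6%, interval 17.5 to 48.7%), 13 of 30 PTZ cells (43.3%, 25.5 to 62.6%), 7 of 41 FOS- nuclei, 5 of 40 FOS+ nuclei and 0 of 23 HC nuclei (up to 14.8%).

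Almost all of the immunoproteasome signal in whole cells was Psmb10. It was detected in 12 saline cells and 13 PTZ cells, with a mean log2(TPM + 1) of 1.64 ± 2.58 and 2.56 ± 3.11, while its highest values were 167 and 323 TPM. Psmb8 was detected in no saline cell and 1 PTZ cell, and Psmb9 in 1 saline cell and no PTZ cell. In nuclei Psmb10 was detected in 1 FOS- nucleus, at 69.6 TPM, and in 1 FOS+ nucleus, at 324 TPM, and Psmb8 at up to 5.11 TPM in 6 FOS- nuclei and 4.64 TPM in 4 FOS+ nuclei. Psmb10 and Psmb8 each overlap an antisense gene (Gm16156 and Gm20496), and reads of the partners cannot be told apart in a protocol that does not keep strand. Psmb5 shares 71.7% of the 31-base words of its transcripts with other genes, most of them the pseudogenes Gm3375 and Psmb5-ps, so part of its reads could have been divided among them.

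FOS+ nuclei were compared with FOS- nuclei to find RNAs that differ in recently active DGCs of the same tissue. The study first left out FOS+ nuclei whose RNA clustered with FOS- nuclei, and it also required spike-in levels to follow their known concentrations. Neither step was taken here, so the groups are not those of the study's own comparison. Of the 54 genes, 42 had TPM above 1 in at least 5 of these nuclei. Of these 42, 7 were higher in FOS+ nuclei (16.7% of them, against 5.84% of the 16387 genes compared), and 5 were lower (11.9%, against 8.01% of all genes). Among genes detected in at least 20 of these nuclei, 6 of 30 members were higher (against 8.62% of genes) and 2 lower (against 10.9%). The median difference over the 42 was 0.07, against -0.09 over all genes, with 24 members above 0 and 18 below. Members thus lay on both sides of 0. By the ratio of mean TPM 4 of the 42 were higher, against 13.4% of all genes, so that the share of members was then below that of genes in general. No member's difference was larger than the SD over nuclei in both groups. The sort is visible at the RNA level: Arc was detected in 31 of 40 FOS+ and 1 of 41 FOS- nuclei, and Fos in 12 and 3. Markers listed for other cell types differed as well. The 4 astrocyte markers summed to over 1 TPM in 32 of 40 FOS+ and 25 of 41 FOS- nuclei (range 0 to 584 and 0 to 413 TPM, Aldh1l1 at 0 in both). The 3 GABAergic markers Gad1, Gad2 and Slc32a1 did so in 28 and 17 (0 to 1360 and 0 to 1313 TPM, Slc32a1 at 0 in FOS+ nuclei). Gad1 was in 19 FOS+ and 15 FOS- nuclei, and Gad2 in 14 and 7. In whole cells sorted for Prox1-GFP, Gad1 was detected in 33 of 38 saline and 21 of 30 PTZ cells. Gad2 and Slc32a1 were detected in none of these cells. Of the 4 granule cell markers, C1ql2 differed by -1.52 and C1ql3 by -1.33, while Prox1 and Dsp were above 0, at 0.51 and 0.61. The part of all these markers in the differences was not tested.

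The higher genes were Psmb1, Psmb3 and Psmb4 of the beta ring, the activators Psme3 and Psme4, the chaperone Psmg1 and the lid subunit Psmd8. Psmb3 and Psmb4, structural subunits of the beta ring, had the largest differences. Psmb3 ranged from 0 over a median of 0 to 382 TPM in FOS- nuclei and from 0 over 22.5 to 963 TPM in FOS+ nuclei. It was detected in 20 of 41 (48.8%, interval 32.9 to 64.9%) and 31 of 40 (77.5%, 61.5 to 89.2%), and its mean log2(TPM + 1) was 2.09 ± 2.54 and 4.02 ± 2.62, a difference of 1.93. The nuclei overlapped over the whole range of the FOS- group, and the difference lies in how many nuclei had the transcript as well as in its level.

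Psmb4 was above 1 TPM in only 4 of 41 FOS- nuclei (9.76%, 2.72 to 23.1%), with a highest value of 431 TPM, and in 16 of 40 FOS+ nuclei (40%, 24.9 to 56.7%), with a highest value of 683 TPM. Its means were 0.81 ± 2.50 and 2.70 ± 3.60, a difference of 1.89. The median was 0 in both groups, so that most nuclei of either group had no Psmb4 reads. Of the other structural beta subunits, Psmb1 was higher by 1.07 (16 of 40 FOS+ and 12 of 41 FOS- nuclei), and Psmb2 differed by 0.06. The catalytic subunits Psmb5, Psmb6 and Psmb7 differed by -0.03, 0.24 and 0.00. The median difference was 1.48 over the 4 structural and 0.00 over the 3 catalytic beta subunits, and the gap between these classes was not tested.

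Psme4, a large nuclear activator that caps the core in place of the 19S particle, ranged from 0 over 20.8 to 789 TPM in FOS- nuclei and from 0 over 66.7 to 773 TPM in FOS+ nuclei. It was detected in 27 of 41 and 35 of 40 nuclei, and its means were 3.88 ± 3.29 and 5.23 ± 2.87, a difference of 1.35. Psme3, also an activator found in nuclei, was detected in 10 FOS- and 15 FOS+ nuclei and differed by 1.04, while Psme2 differed by -0.32. Psme1 was detected in 3 FOS- nuclei and 1 FOS+ nucleus, too few to be compared.

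Psmg1, which pairs with Psmg2 as a chaperone that starts assembly of the alpha ring, was detected in 1 of 41 FOS- nuclei (2.44%, 0.0617 to 12.9%) and 8 of 40 FOS+ nuclei (20%, 9.05 to 35.6%) and was higher by 1.40. In the FOS+ group 1 nucleus held most of its counts. Psmg2 went the other way: 10 of 41 FOS- nuclei and 1 of 40 FOS+ nuclei had it, with highest values of 578 and 468 TPM and a difference of -1.24. The partners of this dimer therefore differed in opposite directions, each on the basis of at most 10 nuclei per group. Psmd8, a lid subunit, was higher by 1.28 (17 of 40 against 7 of 41 nuclei), but its ratio of mean TPM was lower in FOS+ nuclei, at -0.44 on the log2 scale, and 1 FOS- nucleus reached 3233 TPM.

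The lower genes were the inhibitor Psmf1, the cap subunits Psmd2, Psmd13 and Psmc3, and Psmg2. Psmf1 ranged up to 216 TPM in FOS- nuclei and was detected in 14 of 41 (34.1%, 20.1 to 50.6%). In FOS+ nuclei it was detected in 5 of 40 (12.5%, 4.19 to 26.8%), where 1 nucleus at 549 TPM held 93.8% of the counts, and the difference was -1.38. Psmd2 was detected in 18 FOS- and 11 FOS+ nuclei and differed by -1.37, Psmd13, a lid subunit, in 11 and 4 with -1.34, and Psmc3, an ATPase, in 15 and 11 with -1.08. All medians of these genes were 0 in both groups. None of the 7 alpha subunits reached a difference of 1, from Psma7 at -0.90 to Psma1 at 0.58.

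**Figure D3:**
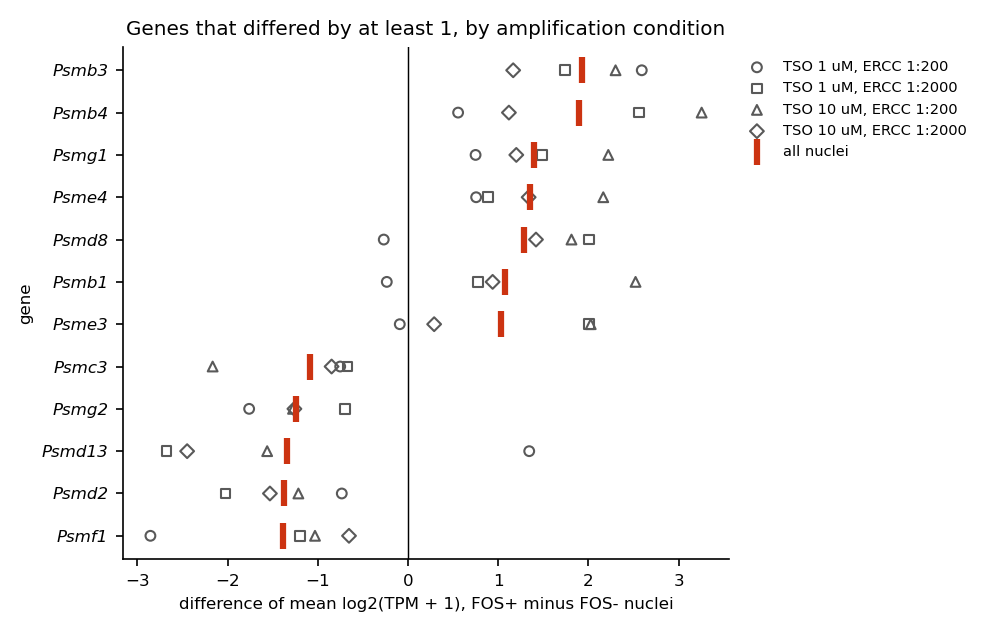
Difference of mean log2(TPM + 1), FOS+ minus FOS- nuclei, for the 12 proteasome genes that differed by at least 1. Open symbols are the 4 amplification conditions of 8 to 11 nuclei per sort group, and the red bar is the value over all nuclei. Psmb3 lies between 1.17 and 2.59 in every condition, whereas Psmd13 is at 1.34 in the condition with 1 uM TSO and ERCC at 1:200 and below 0 in the other 3.

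The 4 amplification conditions, each with 8 to 11 nuclei of either sort, gave separate values. Psmb3 differed by 2.59, 1.74, 2.30 and 1.17 in the conditions with TSO 1 uM and ERCC 1:200, 1 uM and 1:2000, 10 uM and 1:200, and 10 uM and 1:2000. In the same order Psmb4 differed by 0.56, 2.56, 3.26 and 1.12, Psme4 by 0.76, 0.88, 2.17 and 1.34, and Psmg1 by 0.75, 1.48, 2.22 and 1.2. Of the 42 members, 5 were higher in every condition (Psmb3, Psmb4, Psmd4, Psme4 and Psmg1, 11.9%, against 6.70% of all genes) and 4 were lower in every condition (Psmc3, Psmd2, Psmf1 and Psmg2, 9.52%, against 9.89% of all genes). The share lower in every condition is thus that of genes in general. Psmd8, Psmb1 and Psme3 were below 0 in the first condition, with -0.27, -0.24 and -0.09. The median over members was 0.18, -0.05, 0.23 and -0.05, against 0.06, -0.17, 0.00 and -0.33 over all genes, and the median number of genes detected in FOS+ against FOS- nuclei was 5386 against 4826, 5667 against 6226, 6412 against 5458 and 7554 against 7948. The part of gene detection in these differences was not tested.

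The promoters of the 4 genes that differed by at least 1 and were higher in every condition are shown because they could be searched for shared elements. They were taken from RefSeq on GRCm38.p6 and run from 250 bases before to 50 bases after the transcription start, in the direction of the gene. Capitals mark a match to CCAAT, the box bound by NF-Y, or to TGACNNNGC, the core of the element bound by NFE2L1 and its relatives, which drive proteasome genes, on either strand.
Psmb3, chr11:97703184-97703483, plus strand: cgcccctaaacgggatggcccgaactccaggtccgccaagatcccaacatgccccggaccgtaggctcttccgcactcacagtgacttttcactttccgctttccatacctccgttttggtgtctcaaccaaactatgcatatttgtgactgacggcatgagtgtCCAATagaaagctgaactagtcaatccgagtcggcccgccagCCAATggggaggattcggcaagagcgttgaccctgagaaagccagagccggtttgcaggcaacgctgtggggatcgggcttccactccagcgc
Psmb4, chr3:94886909-94887208, minus strand: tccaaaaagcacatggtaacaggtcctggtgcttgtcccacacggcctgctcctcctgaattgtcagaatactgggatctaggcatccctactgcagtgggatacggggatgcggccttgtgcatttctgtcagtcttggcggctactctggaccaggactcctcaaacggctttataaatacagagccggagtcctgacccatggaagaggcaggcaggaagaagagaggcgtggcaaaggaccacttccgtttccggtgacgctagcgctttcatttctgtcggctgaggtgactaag
Psme4, chr11:30771525-30771824, plus strand: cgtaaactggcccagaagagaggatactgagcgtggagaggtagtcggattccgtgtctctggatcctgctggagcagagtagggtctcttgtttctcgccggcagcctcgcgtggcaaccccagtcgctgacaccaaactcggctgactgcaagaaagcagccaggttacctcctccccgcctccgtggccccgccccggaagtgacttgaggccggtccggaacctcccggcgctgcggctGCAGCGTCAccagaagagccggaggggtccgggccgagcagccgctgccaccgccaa
Psmg1, chr16:95990911-95991210, minus strand: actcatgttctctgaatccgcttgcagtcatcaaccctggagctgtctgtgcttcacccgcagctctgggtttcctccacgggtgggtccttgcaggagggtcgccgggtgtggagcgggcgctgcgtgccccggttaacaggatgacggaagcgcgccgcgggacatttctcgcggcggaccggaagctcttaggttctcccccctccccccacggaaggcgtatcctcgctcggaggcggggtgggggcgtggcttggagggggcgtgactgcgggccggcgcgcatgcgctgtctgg
Psmb3 holds 2 CCAAT boxes and Psme4 holds 1 TGACNNNGC match on the reverse strand, and in these windows Psmb4 and Psmg1 hold neither word. The 4 promoters thus share neither element. Promoters were matched for 40 of the 48 genes with a role. Of these 40, 6 (15%) held TGACNNNGC, against 12.4% of 32851 promoters of the same length, and 14 (35%) held CCAAT, against 37.4%. TGANTCA, the site of AP-1, the dimer that contains FOS, was in 2 (5%, against 7.81%), and TGACGTCA, the full cyclic AMP element, in 0 of 40 (against 1.79%). All shares of the 40 are near those of promoters in general. A match is a word in the sequence and not a shown binding site.

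Other genes of the pathway also lay on both sides of 0. Of 31 genes for ubiquitin, shuttles, proteasome-bound enzymes and transcription factors of proteasome genes, 29 could be compared. In FOS+ nuclei 2 of the 29 were higher, against 5.84% of all genes, and 4 were lower, against 8.01%. The higher ones were Zfand5, a proteasome-binding activator of degradation, by 2.03 (31 of 40 against 21 of 41 nuclei), and Nploc4, a cofactor of the VCP segregase, by 1.43. The lower ones were Ube3c, a ligase on the proteasome, by -1.43, Uba6, a ubiquitin-activating enzyme, by -1.20, Ddi2, the protease that activates NFE2L1, by -1.05, and Vcp, the segregase itself, by -1.04. The median over the 29 was -0.19, against -0.09 over all genes.

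PTZ cells were compared with saline cells to see which RNAs differ after seizures in dissociated DGCs. Of the 54 genes, 45 could be compared. None was higher by at least 1, against 4.09% of the 13748 genes compared, and 13 were lower (28.9% of them, against 8.47% of all genes). The median difference over the 45 was -0.50, against -0.06 over all genes, with 35 below 0 and 10 above. No member's difference was larger than the SD over cells in both groups. The summed level was 0.876 times as high at the median, and 22 of 30 PTZ cells lay below the saline median.

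The lower genes came from most parts of the particle. Psmc1, a cap ATPase, ranged from 0 over 226 to 1100 TPM in saline cells and from 0 over 102 to 394 TPM in PTZ cells, with means of 6.98 ± 2.72 and 5.09 ± 3.21, a difference of -1.89. Psmb2 ranged from 0 over 352 to 1126 TPM in saline cells and from 0 over 243 to 755 TPM in PTZ cells, a difference of -1.80. The ranges of the groups overlapped, and more PTZ cells than saline cells were without the transcript. Psmb2 was detected in 36 of 38 saline cells (94.7%, 82.3 to 99.4%) and 22 of 30 PTZ cells (73.3%, 54.1 to 87.7%).

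Of the alpha ring Psma6 (-1.30) and Psma5 (-1.21) were lower, of the beta ring Psmb3 (-1.27) beside Psmb2, of the ATPases Psmc4 (-1.06) beside Psmc1, of the scaffold Psmd2 (-1.39) and Psmd1 (-1.36), and of the lid Psmd3 (-1.25) and Psmd6 (-1.12). The chaperones Psmg2 (-1.37) and Psmd10 (-1.07) and the activator Psme2 (-1.25) completed the list. The highest differences were those of Psmb10 at 0.92, Psmf1 at 0.55 and Psmb6 at 0.44. The catalytic subunits Psmb5, Psmb6 and Psmb7 differed by 0.31, 0.44 and -0.70, so that 2 of the 3 had a higher mean in PTZ cells while the 7 alpha subunits were all below 0.

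The count of lower genes depended on the cells used, on the average and on thinning. With all deposited cells 3 of the 45 were lower (against 3.53% of all genes), by the ratio of mean TPM 5 (against 11.7%), by the ratio of summed counts 1 (against 8.35%) and after thinning to 50000 reads 7 (against 9.72%). By both ratios the share of members that were lower was thus no longer above that of genes in general. The median over members stayed below 0, at -0.17, -0.16, -0.03 and -0.35 in the same order. The median number of all genes detected was also lower in PTZ cells (5760 against 6447), and the part of that in the lower proteasome levels was not tested. Immediate early genes were already high in saline cells, where the sum of Fos, Arc and Egr1 had a median of 905 TPM, against 91.4 TPM in PTZ cells. The summed astrocyte markers reached 3421 TPM in a PTZ cell and at most 87.4 TPM in saline cells, with Aqp4 at 0 in both. Of the 4 granule cell markers 3 were below 0, with C1ql2 at -1.78, and 1 was above. Of the 4 neuron markers 3 were below 0, with Snap25 at -1.06, and 1 was above. The 3 markers of immature neurons were above 0, with Igfbpl1 at 1.39. The part of these markers was not tested.

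**Figure D4:**
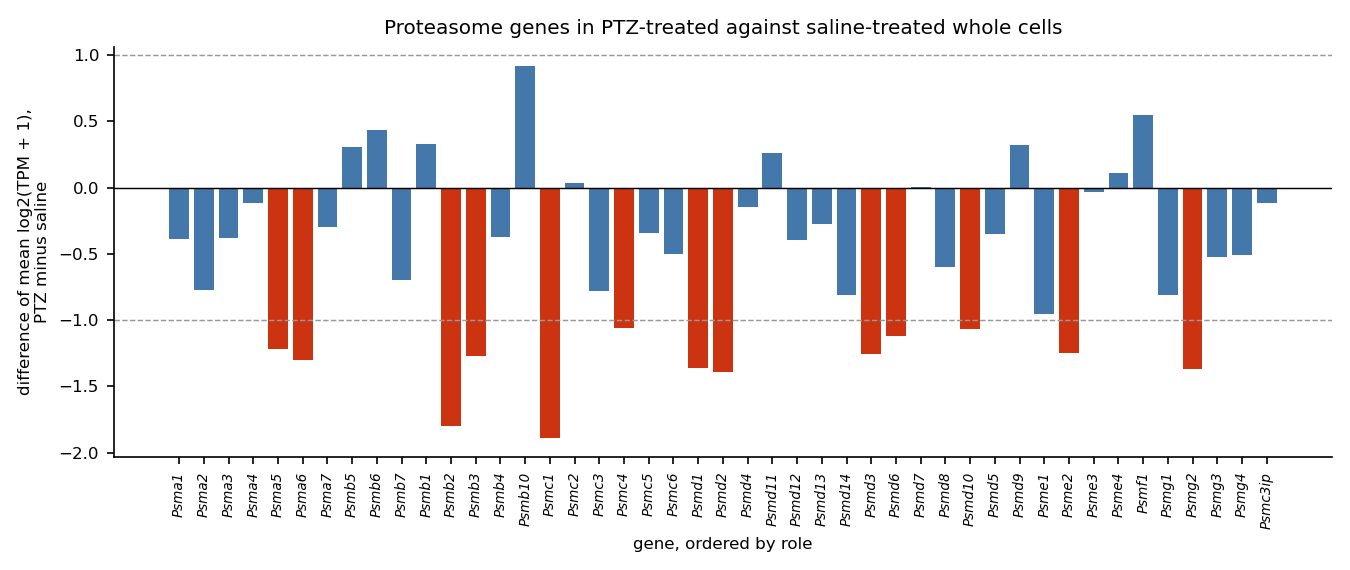
Difference of mean log2(TPM + 1), PTZ minus saline whole cells, for the 45 proteasome genes that could be compared, ordered by role. Red bars differ by at least 1, and dashed lines mark that size. The 13 red bars all lie below 0, from -1.06 to -1.89, and Psmb10 at 0.92 is the highest.

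Of the 31 other pathway genes, all could be compared in whole cells. In PTZ cells 2 were higher, against 4.09% of all genes, and 2 lower, against 8.47%. The median was -0.0099, against -0.06 over all genes. Faf1, a VCP cofactor, was higher by 1.49 and Ubqln2, a shuttle to the proteasome, by 1.48. Rad23b, another shuttle, was lower by -1.09 and Adrm1, a ubiquitin receptor of the cap, by -1.08. The 5 genes for ubiquitin and its activating enzymes were all below 0, and the 6 genes for transcriptional control of proteasome genes were all above 0 at 0.09 to 0.78. Of all genes 55.4% were below and 44.6% above 0.

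Whole cells were set against nuclei in a pair of comparisons that share no libraries, saline cells with FOS- nuclei and PTZ cells with HC nuclei. The first shares its saline cells with the comparison of treatments and its FOS- nuclei with the comparison of sorts. In the first, 47 members could be compared, 37 of them were higher in cells (78.7%, against 29% of 16543 genes) and 2 were lower (4.26%, against 21.5%). The median was 3.87, against 0.02 over all genes. In the second, 42 of 46 were higher (91.3%, against 53.9% of 12808 genes) and none was lower (against 9.92%), with a median of 4.16 against 1.15. In each comparison 26 members differed by more than the SD over cells in both groups, and 37 of the 46 members found in both were higher in both. The 5 microglial markers summed to over 1 TPM in 33 of 41 FOS- nuclei and 1 of 38 saline cells (at most 51.8 and 27.2 TPM), with C1qa, C1qb and Ctss at 0 in both groups. In the second comparison the same markers did so in 10 of 23 HC nuclei and 1 of 30 PTZ cells (at most 5.86 and 5.48 TPM). The 3 endothelial markers summed to over 1 TPM in 19 of 23 HC nuclei and 11 of 30 PTZ cells (at most 43.8 and 18.7 TPM). All of this was Pecam1, which differed by -2.54, more than the SD over cells in both groups, while Cldn5 and Flt1 were at 0 in both. The part of these markers in the differences was not tested.

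By class the median difference was highest for the structural and catalytic beta subunits. Psmb4 was detected in 37 of 38 saline cells at a median of 373 TPM and in 4 of 41 FOS- nuclei at a median of 0, a difference of 6.95. Psma2 differed by 6.68 (35 of 38 against 4 of 41) and Psmb5 by 6.27 (34 of 38 against 7 of 41). Between PTZ cells and HC nuclei Psmb4 differed by 6.94 and Psmb5 by 7.44. Psmb6 was detected in 26 of 30 PTZ cells at a median of 491 TPM and was at 0 in every HC nucleus, as Psma2 was, so that no fold is given for them. The class medians in the first comparison were 5.50 for structural and 5.38 for catalytic beta subunits, 3.92 for the alpha ring, 4.04 for the ATPases, 4.08 for the scaffold, 4.04 for the lid and 2.52 for the core chaperones. Each of these classes was thus higher in cells.

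Several members departed from this. Psmc2, an ATPase of the cap, was in every FOS- nucleus, at 69.5 TPM over a median of 181 to 1285 TPM, and in every saline cell, at 2.5 over 147 to 572 TPM. Its means were 7.49 ± 0.73 and 6.55 ± 2.04, a difference of -0.94. Psmd11, a lid subunit, had medians of 36.4 TPM in FOS- nuclei and 109 TPM in saline cells and differed by -0.03. Psma3 had medians of 453 and 334 TPM and differed by 0.75. Against HC nuclei the differences of PTZ cells were 0.22 for Psmc2, 1.07 for Psmd11 and 2.56 for Psma3.

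These 3 genes were detected in more nuclei of each group than any other proteasome gene, and they held 30.02% of the proteasome TPM in FOS- nuclei, 29.4% in FOS+ nuclei and 24.7% in HC nuclei, against 8.12% in saline cells and 9.71% in PTZ cells. On GRCm38, Psma3 lies at chr12:70974621-70996347, Psmc2 at chr5:21785283-21803787 and Psmd11 at chr11:80428615-80473248, all on the plus strand. Psma3 is overlapped on the other strand by the noncoding gene 3110056K07Rik, and its transcripts share 20.3% of their 31-base words with other genes, those of Psmd11 15.8% and those of Psmc2 10.5%. The annotation lists 3 transcripts with a retained intron among 9 of Psma3, 1 of 2 of Psmc2 and 2 of 15 of Psmd11. Spliced and unspliced RNA are not separated in these tables.

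**Figure D5:**
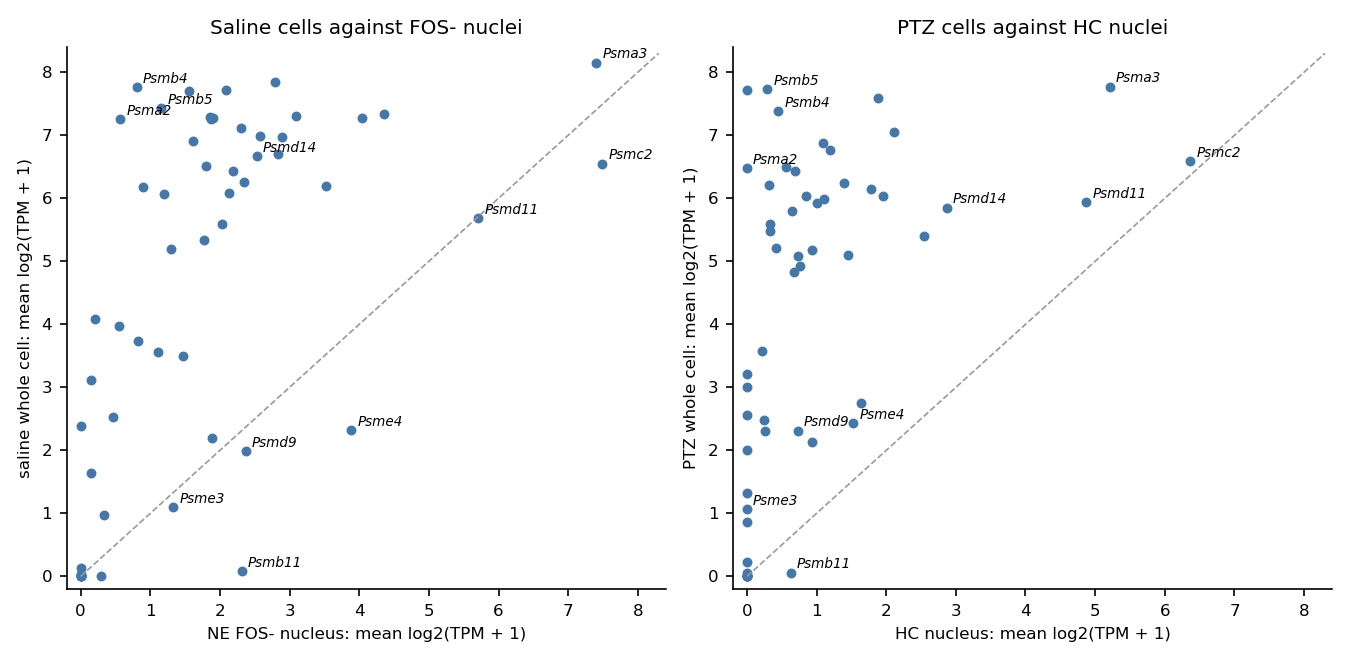
Mean log2(TPM + 1) of each proteasome gene in whole cells (vertical axis) against nuclei (horizontal axis). The left panel sets saline cells against FOS- nuclei, and the right panel PTZ cells against HC nuclei. The dashed line marks equal levels. In the left panel most genes lie far above the line, and Psmc2, Psmd11 and Psma3 have high levels in nuclei and lie near it. Psmb11 and Psme4 lie below it there, with differences of -2.23 and -1.56. In the right panel Psmc2, Psmd11, Psma3 and Psme4 all lie above the line.

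Of the 47 members, 7 had a lower mean in saline cells than in FOS- nuclei. Only Psmb11 and Psme4 among them differed by at least 1, and the others were Psmc2, Psmd11, Psmd9 (-0.38), Psmb8 (-0.30) and Psme3 (-0.23). Psmb11 encodes the catalytic beta subunit of the thymus cortex. It was above 1 TPM in 31 of 41 FOS- nuclei, 27 of 40 FOS+ nuclei and 7 of 23 HC nuclei, at no more than 42.1 TPM, and in none of the 38 saline and 30 PTZ cells (up to 9.25% and 11.6%). It lies at chr14:54621433-54629556, next to Psmb5, which is on the other strand at chr14:54614119-54618022, and the gene models do not overlap. Psme4 had a median of 20.8 TPM in FOS- nuclei and 2.40 TPM in saline cells, a difference of -1.56, but against HC nuclei, where 6 of 23 had it, PTZ cells were higher by 0.91. Psmd10, a chaperone of the cap, showed the opposite: it was in 15 saline and 8 PTZ cells and in 0 of 41, 0 of 40 and 0 of 23 nuclei.

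Whether the gap between cells and nuclei went with gene length was described over the same genes. Spearman's rho between the difference and the gene span was -0.02 over the 47 members and -0.26 over 12118 protein-coding genes. The 10 members with a difference below 1 had a median span of 20116 bases and the other 37 one of 11513 bases, against 32267 and 17540 bases for all protein-coding genes divided in the same way.

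By arithmetic means the gap was smaller. With the ratio of mean TPM, 26 of 47 members were higher in saline cells than in FOS- nuclei (against 22.4% of all genes), with a median of 1.45 against -0.58 over all genes. In PTZ cells 33 of 46 were higher than in HC nuclei (against 48.4%), with a median of 2.45 against 0.89. In the latter 8 members changed direction, among them Psmd6 at -2.22 and Psmf1 at -2.37, and single HC nuclei reached 4812 TPM of Psmd6 and 3410 TPM of Psmf1.

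Most genes that work with the proteasome were also higher in cells. Of the 29 pathway genes compared between saline cells and FOS- nuclei, 18 were higher in cells and 3 lower. Of all genes 29% were higher and 21.5% lower. The median was 2.29 over the pathway genes and 0.02 over all genes. The ubiquitin genes Ubb and Rps27a led, by 6.48 and 6.02. The lower ones were Ube3a, a ubiquitin ligase that binds the proteasome, by -2.39, AI314180, a proteasome adaptor and scaffold, by -2.08, and Uchl5, a deubiquitinase of the cap, by -1.47. Against HC nuclei 22 of 31 were higher in PTZ cells (against 53.9% of all genes) and 1 was lower (against 9.92%). The median was 2.16, against 1.15 over all genes. The lower one was Uchl5 at -2.55, and it was detected in 22 of 23 HC nuclei and 30 of 30 PTZ cells.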

How the data were processed

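The authors trimmed reads with SolexaQA++, aligned them with Bowtie 1.0.0 through RSEM to mm10 (GRCm38) with the Ensembl annotation, and converted gene identifiers to symbols. They deposited expected counts, the reads RSEM assigned to each gene without normalization, and TPM values, scaled within each cell, in separate tables for whole cells, NE nuclei and HC nuclei. The TPM columns sum to between 982725 and 1000000, and no columns of a table were identical.

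All 201 samples were grouped by their labels. Cells were used if their expected counts summed to over 50000 and their number of genes with TPM above 1 exceeded the mean minus 2 SD of their table, while all 23 HC nuclei were kept. Depth decides what can be seen: a count of 3 was between 5.85e-05% and 0.00470% of a library. Genes with TPM above 1 in at least 5 cells of a comparison were compared by the difference of group means of log2(TPM + 1), a pseudocount of 1, and counted at a difference of at least 1. Because of the pseudocount such a difference understates the change of low genes.

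The study tested cells as replicates with a count model. Here no p-value was computed, because the labels name no animal and the methods describe 1 mouse for NE nuclei and a pool of mice per treatment, so that cells are not replicates of a condition. Intervals are exact Clopper-Pearson 95% intervals. The difference of means was run on simulated counts for the comparisons of FOS+ with FOS- nuclei and of PTZ with saline cells. Only highly expressed genes were changed there, so the run does not cover genes without reads in most nuclei. Python 3.11.15, numpy 2.4.6, pandas 2.3.3, scipy 1.17.1 and matplotlib 3.10.9 were used. Gene positions and shared 31-base words came from the GRCm38 annotation and its transcripts, promoters from RefSeq.

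The members, gene lists and thresholds were chosen with earlier results of these data known, and the motifs TGANTCA and TGACGTCA were added after the values had been seen. Genes are named if they are catalytic or immunoproteasome subunits, were counted as different or were among the 3 largest in a comparison, or were highest or lowest in their class in saline cells. Of the other pathway genes at most the 3 largest in each direction were to be named, and others were named after their values were seen. Alternatives were other pseudocounts, filters, units, averages, thinning to 50000 reads, all deposited cells and leaving out each cell. The listed factor Paaf1 was not analysed here, and 1 listed pathway gene is not reported here, so counts and medians of the pathway genes are over the others.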

Additional observations from a re-analysis of the deposited data

How the results depend on the processing

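No paired analysis was possible because replicate numbers were given in accession order and link no samples. Over all results and alternatives, 159 values of the main results were counted as close to the reported ones and 32 as moved. A median was counted as close if it shifted by less than the SD over cells, so a small median could change sign. In FOS+ against FOS- nuclei the median over members was 0.07. It became -0.07 with all deposited cells and -0.02 after thinning to 50000 reads, against -0.15 over all genes under both settings. In FOS+ against FOS- nuclei the 7 higher and 5 lower members became 0 and 0 with a pseudocount of 10 TPM. The higher ones became 4 with all deposited cells (against 3.55% of all genes) and 4 by the ratio of mean TPM (against 13.4%). The lower ones became 2 of 30 with detection in at least 20 nuclei (against 10.9%) and 3 of 41 after thinning to 50000 reads (against 10.7%), and under these settings other than all deposited cells the share of members was below that of all genes. Psmd8 reversed to -0.44 by the ratio of mean TPM. Leaving out 1 nucleus at a time gave 5 to 8 higher and 4 to 6 lower members.

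In PTZ against saline cells the 13 lower members of 45 became 2 with a pseudocount of 10 TPM (against 1.42% of all genes), 3 with all deposited cells (3.53%), 5 by the ratio of mean TPM (11.7%), 1 by the ratio of summed counts (8.35%) and 7 after thinning (9.72%). By both ratios the share of members was not above that of all genes. The count of higher members became 1 with a pseudocount of 0.1 TPM, by the ratio of mean TPM, by the ratio of summed counts and after thinning. Leaving out 1 cell at a time gave 0 to 1 higher and 10 to 14 lower members. The added higher one was Psmb10, and the added lower ones were Psme1 and, without 1 PTZ cell, Psmg1.

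For saline cells against FOS- nuclei the median became 5.50 with a pseudocount of 0.1 TPM, 2.18 with 10 TPM, 1.45 by the ratio of mean TPM and 1.39 by the ratio of summed counts. The lower members became 1 with a pseudocount of 10 TPM and 4 by summed counts. For PTZ cells against HC nuclei the median became 5.96, 2.29, 2.45 and 2.64 under the same alternatives, and the lower members 1 with a pseudocount of 0.1 TPM, 2 by the ratio of mean TPM and 4 by summed counts. By the ratio of mean TPM the values of Psma3, Psma4, Psmb1, Psmc4, Psmc6, Psmd14, Psmd6 and Psmf1 reversed to -0.98, -0.34, -0.047, -0.10, -0.27, -0.97, -2.22 and -2.37, and by summed counts to -0.25, -0.20, -0.30, -0.34, -0.63, -0.62, -1.88 and -2.10. Leaving out 1 cell at a time gave 37 higher and 2 to 3 lower members in the former comparison, and 39 to 43 higher and 0 lower members in the latter. Saline cells were also set against only the FOS- nuclei with the TSO and ERCC amounts of whole cells. There 37 of 46 members were higher (against 26.6% of all genes) and 3 lower (against 33.9%). The median was 2.99, against -0.18 over all genes.

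In CPM of the expected counts the median sum in saline cells was 5703. With detection at TPM above 5, an immunoproteasome subunit was seen in 4.88% of FOS- and 2.5% of FOS+ nuclei. The averages weight cells without reads differently by construction. The cause of the other shifts was not tested. Most members were at 0 in most nuclei, which limits what a mean over nuclei can show.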
